A study of Mus musculus with 127 samples.

Results

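Chromosome 17 was examined as the set of all 10 kb windows of that chromosome which the position files of 10 mouse embryonic stem cell nuclei list. Every such window was taken, without regard to its position, which gave 46179 listed windows of 1222168 in the series (3.78%). They come from 8939 distinct windows, and the last of them ends at 94.89 Mb of the mm10 genome. The windows of 33.5 to 38.5 Mb, which hold the major histocompatibility complex (MHC), account for 2917 of the listed windows and are compared with the rest of the chromosome.

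The series used sequential genome architecture mapping, in which a nucleus is cut into serial slices called nuclear profiles, the DNA of each slice is amplified and sequenced, and each stretch of genome is given a place along the cutting axis. The cells were untreated F123 embryonic stem cells, 1 line from a cross of CAST and 129 mice, grown with LIF on mouse embryonic fibroblast feeders and moved to feeder-free plates before use. Batch B16F held Cell17 (23 profiles), Cell18 (16), Cell19 (12) and Cell20 (12), and batch B18F held Cell25 (15), Cell26 (7), Cell27 (8), Cell28 (8), Cell38 (10) and Cell39 (11). The 5 control libraries, 1 negative and 4 positive, have no position file among those used here. Each cell has 2 files, numbered 0 and 1, and the sources used here do not say what the numbers stand for. The files hold DNA positions and no expression values, so the labelled cell type was not checked against marker genes. The axis has no named unit and no shared direction between cells, so distances are given in axis units or as ratios. A cell is 1 replicate in every test, and all tests are two-sided.

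Mouse chromosome 17 carries the MHC, the gene-dense region that presents antigens to T cells, with class I genes such as H2-K1 and H2-D1, class II genes such as H2-Ab1, and the class III genes between them, among them Tnf and complement genes. Pou5f1, which encodes the pluripotency factor OCT4 of embryonic stem cells, lies inside the class I part of the complex. The proximal end carries the t-complex, named for alleles that act with T (brachyury), a regulator of mesoderm, and the imprinted Igf2r cluster, where the maternal and paternal copies are used differently. Chromosomes fold as polymers inside territories, so loci that are neighbours on the sequence tend to be neighbours in the nucleus, and most long-range order differs from cell to cell.

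The start regions of 3 landmarks are shown to fix the places that the values below refer to: Pou5f1 and H2-K1 mark the MHC segment, and T marks the proximal end. The letters are the 250 bases before a RefSeq transcript start in GRCm38.p6, the assembly behind mm10, read on the gene's strand. Capitals mark the letters CCAAT or their reverse complement ATTGG, searched on both strands. The stretches are chr17:35505782-35506031 (plus strand) for Pou5f1, chr17:34000348-34000597 (minus strand) for H2-K1 and chr17:8434173-8434422 (plus strand) for T.
Pou5f1: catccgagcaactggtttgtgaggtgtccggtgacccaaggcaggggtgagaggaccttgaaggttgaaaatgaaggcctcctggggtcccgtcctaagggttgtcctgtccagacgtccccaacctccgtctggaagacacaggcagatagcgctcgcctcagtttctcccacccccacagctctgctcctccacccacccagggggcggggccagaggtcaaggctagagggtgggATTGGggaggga
H2-K1: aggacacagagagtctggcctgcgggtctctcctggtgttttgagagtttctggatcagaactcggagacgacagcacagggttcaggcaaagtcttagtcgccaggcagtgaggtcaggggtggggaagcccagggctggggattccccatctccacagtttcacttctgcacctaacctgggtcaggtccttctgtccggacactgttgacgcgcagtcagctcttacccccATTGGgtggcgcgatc
T: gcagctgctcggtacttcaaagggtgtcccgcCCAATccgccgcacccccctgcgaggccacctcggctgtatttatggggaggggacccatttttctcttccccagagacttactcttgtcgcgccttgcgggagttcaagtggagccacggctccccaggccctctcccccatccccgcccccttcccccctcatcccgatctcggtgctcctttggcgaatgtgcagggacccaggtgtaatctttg
CCAAT in either orientation was present in 33.8% of the 32851 start regions of the table, in 37.9% of the 1626 on chromosome 17 and in 41.1% of the 265 in the MHC segment. The 10 kb window that holds the Pou5f1 start was located in 4 of 20 files, each from a different cell (Cell17, Cell26, Cell27 and Cell38). That of H2-K1 was located in 8 files of 6 cells, and that of T in 6 files of 5 cells. A file therefore placed only a minority of loci, and most of what follows is given over stretches of windows.

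Coverage of chromosome 17 differed widely between nuclei. Both files added, Cell25 located 6502 windows, Cell28 5916, Cell17 5158, Cell26 4996, Cell27 4828, Cell19 4674, Cell18 4340, Cell38 4235, Cell20 3096 and Cell39 2434. Cell39 was the lowest and Cell25 the highest, while Cell17, with the most profiles, was in the third place. The share of possible windows listed was 25.1% ± 6.55 (SD, n = 10) on chromosome 17 and 23.5% ± 7.54 on the other 18 autosomes. The log2 ratio of these shares was 0.37 in Cell18, 0.29 in Cell39, 0.27 in Cell38 and 0.20 in Cell19. It was 0.040 in Cell28, 0.038 in Cell27, 0.037 in Cell26 and 0.023 in Cell20, and it was slightly negative in Cell17 (-0.026) and Cell25 (-0.025). The mean was 0.12 ± 0.15, positive in 8 of 10 cells. The exact sign-flip test gave p = 0.0195, and 0.371 once adjusted over the 19 autosomes, which missed the threshold of 0.05. The mean was 0.24 in file 0 alone, 0.041 in file 1 alone and 0.054 without windows in both files. Only chromosome 14 had a higher mean (0.19). Read counts are not part of the files, which leaves sequencing depth unknown.

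The windows were spread over the whole chromosome. No 1 Mb bin from 3 Mb onward was empty in any cell, and a bin held from 6 to 166 windows in a cell. The 10 cells added, the median bin held 504 windows. The 3 fullest bins were those starting at 33 Mb (681 windows), 35 Mb (669) and 57 Mb (652), so that 2 of the 3 lie in or across the border of the MHC segment. The 35 Mb bin, with Pou5f1, H2-D1 and Tnf, had 73, 58, 78, 34, 85, 87, 88, 77, 54 and 35 windows in the cells from Cell17 to Cell39 in the order given above for the batches. All 10 cells had more there than in the mean bin of the chromosome, with a log2 ratio of 0.40 ± 0.23 (exact sign-flip test, p = 0.00195, adjusted p = 0.0797 over 2407 autosomal bins). The 33 Mb bin had a log2 ratio of 0.40 ± 0.41 over the 10 cells, 8 of them above 0 and 2 below (adjusted p = 0.15, exact sign-flip test). H2-K1 crosses the distal border of this bin, and its transcript start lies in the next bin.

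The bin at 11 Mb was among the 3 with the fewest windows (346), as was the bin that starts at 2 Mb, with 1 window in all. The 11 Mb bin had 83 windows in Cell28 but 14 in Cell20 and 19 in Cell39, and it was under the mean bin in 9 of the 10 cells, with a log2 difference of -0.62 ± 0.46 (adjusted p = 0.109, exact sign-flip test). Of the 93 bins tested on chromosome 17, 4 had more windows at an unadjusted p under 0.05 (4.3%) and 9 had fewer (9.68%), and none passed after adjustment. Over all 2407 autosomal bins, 4.11% had more and 14.7% had fewer at that threshold. The bin at 2 Mb, with its 1 window, is among the 9. Bin profiles of different cells had little in common, with a Spearman correlation that ran from -0.308 to 0.503 over the 45 pairs of cells (median 0.0803, 92 bins, given as a description).

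**Figure D1:**
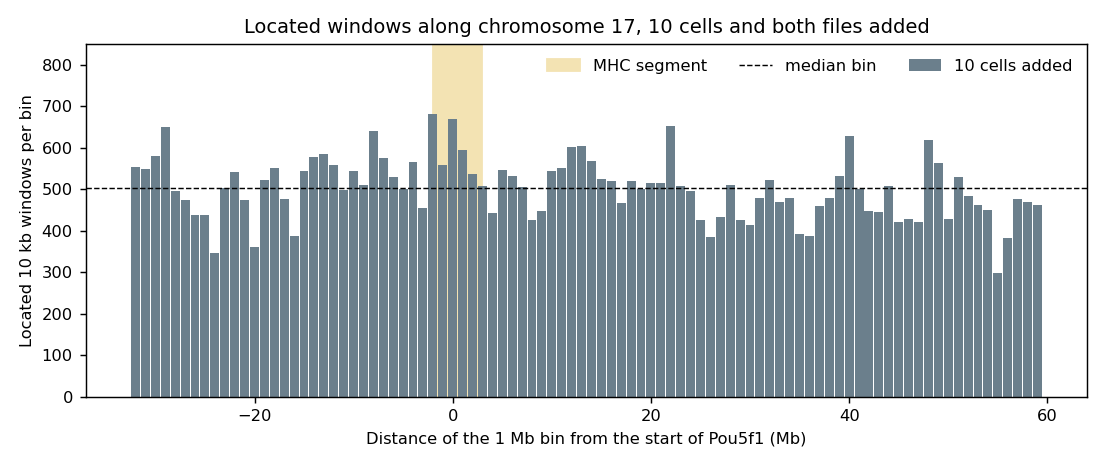
Located 10 kb windows in each 1 Mb bin of chromosome 17 (vertical axis, windows of 10 cells and both files added) against the distance of the bin from the start of Pou5f1 in Mb (horizontal axis). The shaded band is the MHC segment, the dashed line is the median bin at 504 windows, and the fullest bins, with 681 and 669 windows, lie in or at the edge of the band.

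Named genes were located unevenly, as their few windows allow. Of the windows under a gene body, added over the 20 files, 46.7% were located for Vegfa, the vascular growth factor gene (28 of 60), 42.5% for H2-K1 (17 of 40), 40% for H2-D1 (8 of 20) and 40% for the eye and forebrain regulator Six3 (16 of 40). The lowest shares were 6.67% for Tbp, which encodes the TATA-binding protein (4 of 60), and 12.5% for Fpr1, a formyl peptide receptor of phagocytes (5 of 40). Pou5f1 had 27.5% (11 of 40), T had 22.5% (9 of 40) and Igf2r had 25.6% (46 of 180). All 25 landmarks were located in at least 2 cells, and Igf2r, Runx2 and Vegfa were among those located in 10.

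Grouped by family, the windows under the 26 class I and other H2 genes were located at 33.4% ± 10.9 (SD, n = 10), from 9.21% in Cell20 to 52.6% in Cell28, which was above the share of the whole chromosome in 9 of 10 cells. The 16 class III genes had 31.6% ± 14.9 and were above it in 8 cells, while the 9 class II genes had 26.2% ± 9.68 and were above it in 4. The 50 olfactory receptor genes, of which 46 lie in the distal part of the MHC segment, had 23.3% ± 10.6 (above in 5 cells). Vomeronasal receptors, which sense pheromones, had 23.1% ± 9.82 over 46 genes and formyl peptide receptors 18.1% ± 11.6 over 7 genes, and each was above the chromosome in 1 cell. The 9 t-complex genes had 28.8% ± 7.17 (6 cells), the 6 genes of the Igf2r cluster 25.4% ± 12.6 (6 cells), 46 zinc finger genes 25.6% ± 8.56 (4 cells), 12 serine protease genes 23.2% ± 21.5 (4 cells) and 3 Crisp genes of sperm and the epididymis 24.0% ± 11.5 (5 cells). These shares are descriptions with no test. Several families are clusters of near-identical copies, and reads shared between copies could place or remove a window, which was not tested.

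The MHC segment was the best covered of the 18 segments of 5 Mb on chromosome 17. Its share of located windows was 31.9% against 27.8% for the rest of the chromosome in Cell17, 29.5% against 23.3% in Cell18, 30.9% against 25.1% in Cell19 and 19.8% against 16.7% in Cell20. In batch B18F it was 36.5% against 35.3% in Cell25, 29.2% against 27.1% in Cell26, 29.3% against 26.1% in Cell27, 45.5% against 31.4% in Cell28, 25.8% against 22.9% in Cell38 and 13.3% against 13.2% in Cell39. The segment was thus higher in all 10 cells, by a wide margin in Cell28 and by almost nothing in Cell39. The log2 ratio was 0.21 ± 0.15, a factor of 1.16, and the exact sign-flip test gave p = 0.00195, the lowest that 10 cells can reach. Adjusted over the 471 autosomal segments it was 0.0657, which missed the threshold of 0.05.

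Of the 471 segments, 5 were above their chromosome in every cell (1.06%), and the MHC segment was the only one of them on chromosome 17. By mean ratio it ranked 30 of 471, but its SD between cells (0.15) was the fourth smallest, against a median SD of 0.356 over all segments and 0.441 on chromosome 17. The mean was 0.27 ± 0.063 in the B16F cells and 0.17 ± 0.19 in the B18F cells (exact permutation p = 0.362 over 210 assignments). With the bounds at 34 and 37 Mb the mean was 0.28. The segment also held 223 of the 1048 protein-coding genes of chromosome 17, the most of its 18 segments (median 35.5). Over those 18 segments the Spearman correlation of mean ratio and number of coding genes was 0.662, and over all 471 it was 0.438. These correlations are descriptions of segments that share the same cells, and base composition, which can move with gene number, was not measured. The part of gene number, base composition or the strain difference from the reference genome in the coverage of the MHC was not tested.

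**Figure D2:**
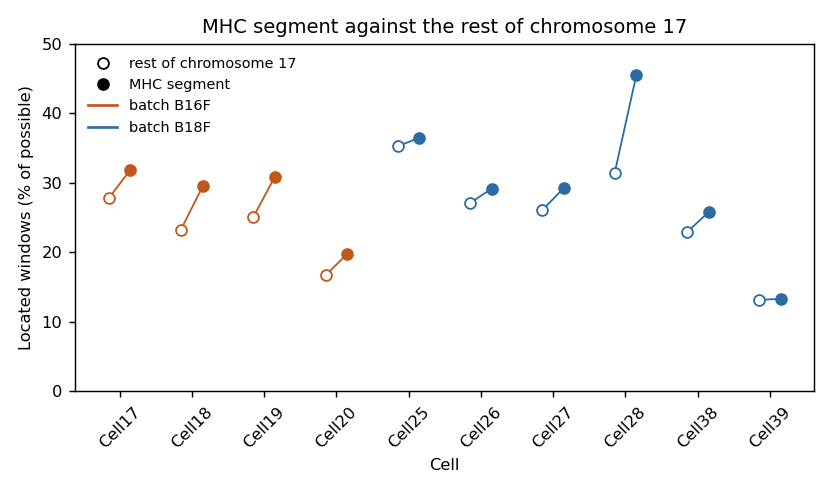
Located windows as a percent of those possible (vertical axis) in each cell (horizontal axis), for the rest of chromosome 17 (open circles) and the MHC segment (filled circles), with a line joining them and colour giving the batch. The filled circle is the higher in all 10 cells, with the widest gap in Cell28 (45.5% against 31.4%) and the narrowest in Cell39 (13.3% against 13.2%).

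Chromosome 17 reached every part of the sampled axis. Positions fall mostly on a grid of 1 step per slice, and windows of chromosome 17 were present at every grid position of every cell, from 7 positions in Cell26 to 23 in Cell17. The thinnest position, in Cell18, held 2 of chromosome 17 among 122 autosomal windows. The same count was not made for other autosomes, so this reach is not shown to be particular to chromosome 17. Cell18 and Cell38 had 17 and 11 grid positions, 1 more than their profiles. The SD of chromosome 17 along the axis was close to that of all autosomes, for example 0.995 against 1.06 axis units in Cell17 and 0.354 against 0.328 in Cell26. The mean position as a percent of the sampled span was 42.4 in Cell17, 52.4 in Cell18, 49.5 in Cell19, 44.5 in Cell20, 65.2 in Cell25, 32.8 in Cell26, 49.2 in Cell27, 30.6 in Cell28, 40.4 in Cell38 and 82.3 in Cell39. The mean of all autosomes lay near it in each cell, at 85.3 in Cell39 and 58.7 in Cell25. In Cell39 a single slice position held 65.6% of the chromosome 17 windows on the grid, against 14.7% for the fullest position in Cell17. The share of chromosome 17 among the autosomal windows there was 1.02 and 0.907 times its share in the cell. The other autosomes were thus concentrated at these positions to a similar degree.

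Within grid positions, the share of chromosome 17 among autosomal windows went from well under to well over its share in the cell. Among positions with at least 500 autosomal windows on the grid, the highest ratio was 1.97 in Cell17 (51 of 673 windows) and 1.95 in Cell25 (1694 of 23067). The lowest was 0.316 in Cell17 (43 of 3537) and 0.406 in Cell25 (358 of 23402). In Cell18 neighbouring positions went from 1.66 (883 of 10816) to 0.559 (41 of 1494). Cell27 had the narrowest range, from 0.86 to 1.36. In Cell18 and Cell38 the positions outnumber the profiles, so a position is not always 1 slice. Each position occurs once in a cell, so these ratios have no replicate and no test.

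**Figure D3:**
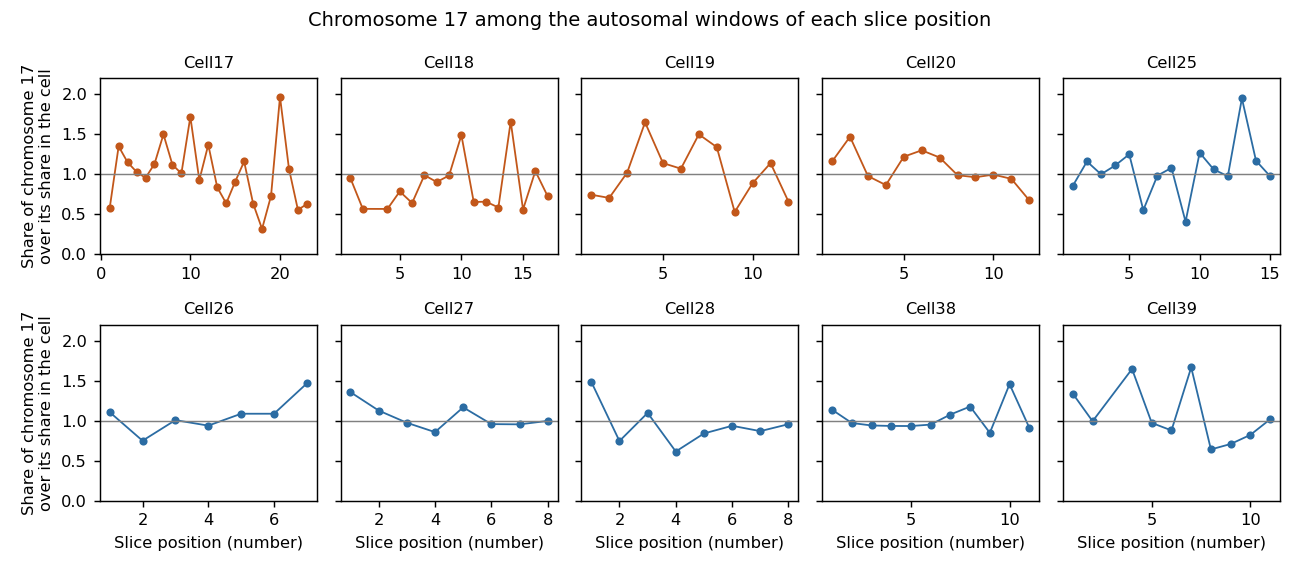
Share of chromosome 17 among the autosomal windows of a slice position divided by its share in the whole cell (vertical axis) against the number of the position along the axis (horizontal axis), with 1 panel per cell and orange for B16F and blue for B18F. Only positions with at least 500 autosomal windows are drawn. The ratio reaches 1.97 in Cell17 and 1.95 in Cell25, while Cell27 stays between 0.86 and 1.36.

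The path of chromosome 17 along the axis, taken as the mean position of each 1 Mb bin with both files pooled, was jagged. Its range differed between cells. The paths of the 2 files had a Spearman correlation of only 0.0352 in Cell20 and 0.337 in Cell18, so the pooled path need not follow either file there. The bins covered 23.2% of the sampled span in Cell17, 25.6% in Cell20, 25.7% in Cell38 and 37.8% in Cell18. They covered 40.6% in Cell25, 46.2% in Cell27, 47.2% in Cell28, 59.7% in Cell19, 61.8% in Cell39 and 70.3% in Cell26. Cell26, with the fewest profiles, had the widest range. In Cell28 the first 10 Mb lay at 20.1% of the span and the last 10 Mb at 40.4%, and the Spearman correlation of position with coordinate was 0.518. In Cell39 the proximal 10 Mb lay at 69.2% and the distal 10 Mb at 91.4%. The values were 64.3% and 44.4% in Cell19, and 41.0% and 21.3% in Cell26. The axis has no shared direction, so the order of the ends cannot be compared between cells. In the other 6 cells the ends were 2.09 to 4.79 percentage points apart. The sharpest step between neighbouring bins was 0.932 axis units, into the bin at 6 Mb of Cell39, a bin chosen after its value was seen.

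Inside and beside the MHC, the path could bend within a few megabases, as in these bins, chosen after their values were seen. In Cell19 the bin at 34 Mb, with H2-Ab1 and Notch4, was the lowest of the chromosome at 17% of the span, while its neighbours at 33 and 35 Mb were at 41.8% and 41.2%. By contrast, in Cell39 the bins from 31 to 38 Mb all lay at 85.0% to 99.7%, where the mean over its bins was 86.1%. In Cell26 the bin at 34 Mb was at 51.2% and the bin at 37 Mb, with Zfp57 and H2-M3, was at 24.1%. The windows of the Pou5f1 and H2-K1 starts, 1.5 Mb apart, were located in the same file in 3 cells. They were 0.2 axis units apart in Cell17, 0.252 in Cell27 and 0.6 in Cell38, which is 0.169, 0.565 and 1.03 times the mean distance between chromosome 17 and the other autosomes in those cells.

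**Figure D4:**
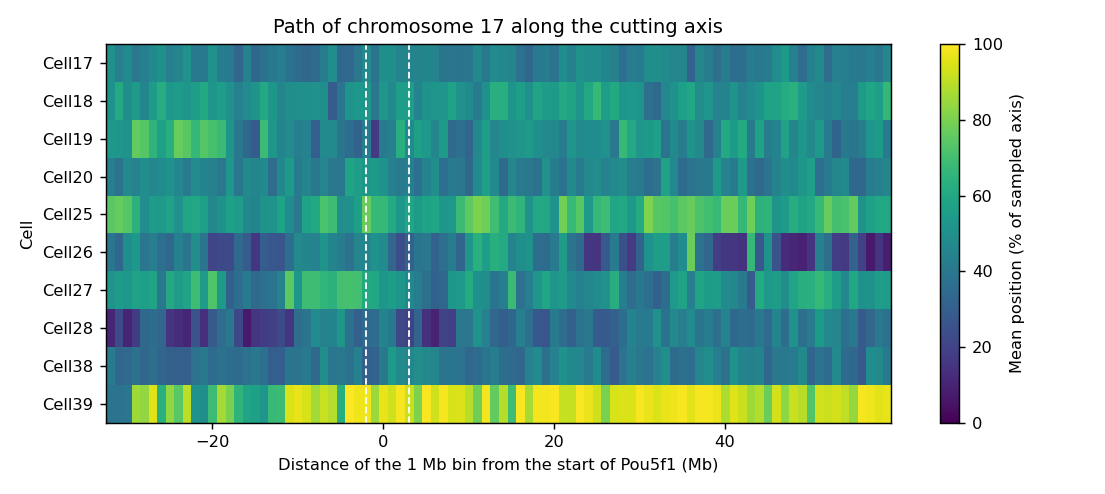
Mean position of each 1 Mb bin of chromosome 17 as a percent of the sampled axis (colour) against its distance from the start of Pou5f1 in Mb (horizontal axis). Both files are pooled, each cell has 1 row, and the MHC segment is between the dashed lines. Cell17, with a range of 23.2% of the span, is nearly even, Cell26 (70.3%) has stretches near the low end, and Cell39 lies mostly at the high end after its first megabases. The direction of the axis is arbitrary in each cell.

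Windows that are near on chromosome 17 lay near along the axis, and 4 of 10 separations passed, those up to 1 Mb. Distances between windows of the same file at a fixed separation were divided by the mean distance from chromosome 17 to the other autosomes, which was 0.658 ± 0.25 axis units (SD, n = 10). For adjacent windows (0.01 Mb) the ratio was 0.786 in Cell17, 0.803 in Cell18, 0.635 in Cell19, 0.677 in Cell20, 0.536 in Cell25, 0.477 in Cell26, 0.646 in Cell27, 0.585 in Cell28, 0.908 in Cell38 and 0.621 in Cell39. Every cell was under 1, with Cell26 the lowest and Cell38 the nearest to 1. The log2 ratio was -0.61 ± 0.28 (exact sign-flip test, p = 0.00195, adjusted p = 0.009), and 100% of the 19 autosomes passed at this separation.

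The ratio came closer to 1 as the separation grew. At 0.1 Mb the log2 ratio was -0.31 ± 0.23, below 0 in 10 of 10 cells (adjusted p = 0.009, exact sign-flip test, with 100% of autosomes passing). At 0.5 Mb it was -0.19 ± 0.16, below 0 in 9 cells (adjusted p = 0.0165, exact sign-flip test, 84.2% of autosomes passing). At 1 Mb it was -0.12 ± 0.11, below 0 in 8 cells (adjusted p = 0.0208, exact sign-flip test, 73.7% of autosomes passing). The p-values were adjusted over all autosomes and separations.

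From 2 Mb on, chromosome 17 did not pass. The log2 ratio was -0.069 ± 0.13 at 2 Mb (adjusted p = 0.185, exact sign-flip test), where 47.4% of the autosomes passed. Without Cell39, whose value was 0.27, it was -0.11 and passed (adjusted p = 0.0227, exact sign-flip test). The mean was -0.017 for 5 Mb, -0.042 for 10 Mb, -0.020 for 20 Mb, 0.012 for 50 Mb and 0.12 for 80 Mb, with adjusted p between 0.245 and 0.785 (exact sign-flip test). At 80 Mb the cells ranged from -0.43 in Cell38 to 0.66 in Cell39 on 38 to 240 pairs per cell, against 913 to 3794 adjacent pairs. Bin means of 1 Mb in place of windows gave larger contrasts, and 2 Mb (-0.31), 5 Mb (-0.17) and 20 Mb (-0.17) then passed. With the windows that are in both files of a cell left out, 0.5 Mb (-0.13) and 1 Mb (-0.051) no longer passed, while 0.01 and 0.1 Mb did. In file 0 alone 1 Mb missed the threshold (-0.12, adjusted p = 0.0671, exact sign-flip test), and in file 1 alone 0.5 Mb missed it (-0.16, adjusted p = 0.0521, exact sign-flip test).

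**Figure D5:**
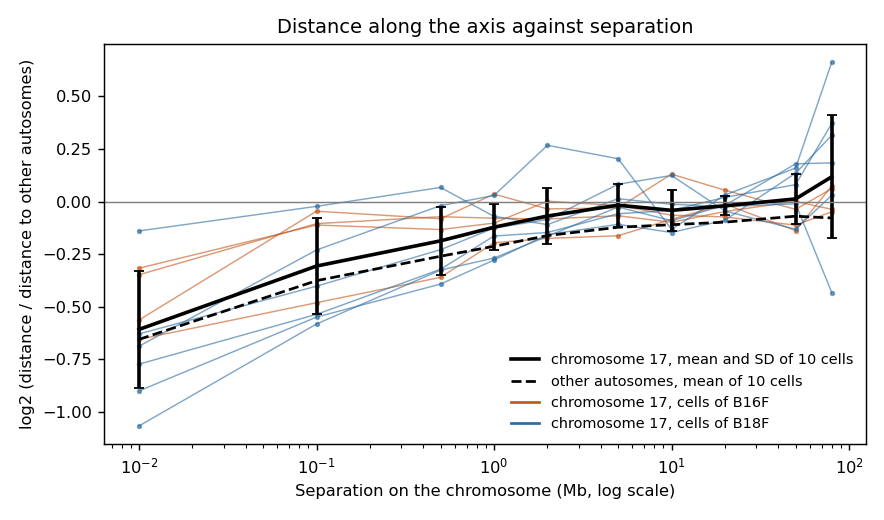
Log2 ratio of the distance between windows of chromosome 17 to the distance between chromosome 17 and other autosomes (vertical axis) against separation in Mb on a log scale (horizontal axis). Thin lines are cells, coloured by batch, the thick line with bars is their mean and SD (n = 10), and the dashed line is the mean of the other autosomes. The mean of chromosome 17 goes from -0.61 at 0.01 Mb to -0.12 at 1 Mb and 0.12 at 80 Mb.

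Chromosome 17 lay above the mean of the other autosomes at each of the 9 shared separations, but none of these differences passed. At 1 Mb the difference was 0.091 ± 0.20 on the log2 scale, positive in 8 of the 10 cells (exact sign-flip test, p = 0.0449, adjusted p = 0.425). Over all pairs of windows it was 0.087 ± 0.19 (adjusted p = 0.664, exact sign-flip test). Cell39 had 0.65 at 1 Mb and 0.60 over all pairs, and without it the means were 0.029 and 0.030. Without it the mean difference also turned negative at 0.01 Mb (-0.018) and at 0.1 Mb (-0.0026). In Cell39 adjacent windows of chromosome 17 had a log2 ratio of -0.69, while the mean of the other autosomes was -1.32, the lowest of the 10 cells.

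The distance between the 2 ends of chromosome 17 was not shown to differ from its distance to other autosomes. The first 10 Mb after 3 Mb and the last 10 Mb were 1.0 times as far apart as chromosome 17 is from other autosomes in Cell17, 0.981 in Cell18, 1.06 in Cell19, 0.967 in Cell20, 0.982 in Cell25, 1.12 in Cell26, 1.06 in Cell27, 1.25 in Cell28, 0.948 in Cell38 and 1.29 in Cell39. The log2 mean of 0.084 ± 0.15 was the highest of the 19 autosomes and did not pass (exact sign-flip test, p = 0.131, adjusted p = 0.708). Without Cell39 it was 0.053, and the difference from the other autosomes went from 0.14 to 0.058. The distance of chromosome 17 windows from the axis midpoint was ranked as a percentile among all autosomal windows of the cell. Its mean differed from the mean of all autosomal windows, chromosome 17 included, by 1.10 ± 4.20 points (adjusted p = 0.923, exact sign-flip test). The cells ranged from -4.87 in Cell19 to 10.3 in Cell25. Without Cell25 the mean was 0.079 points.

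For the MHC segment, no difference in compactness or in place along the axis passed the test. Pairs of its windows were 0.606 ± 0.247 axis units apart, against 0.605 ± 0.247 for the other segments of chromosome 17. The log2 ratio was -0.027 ± 0.28, negative in 5 of the 10 cells (exact sign-flip test, p = 0.773, adjusted p = 0.997). It was lowest in Cell39 (-0.589), where the pairs were 0.247 units apart, and highest in Cell19 (0.373). The mean of the segment lay 0.114 ± 0.0718 axis units from the mean of the rest, against 0.138 ± 0.0463 for other segments (log2 difference -0.16 ± 0.76, adjusted p = 0.932, exact sign-flip test). Its midpoint percentile was 49.2 ± 8.20 against 51.2 ± 4.4, with the segment 18 points nearer the midpoint in Cell26 and 11.3 points farther in Cell19 (adjusted p = 0.984, exact sign-flip test).

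The files 0 and 1 of a cell placed the same megabase of chromosome 17 at similar positions. Windows of file 0 and file 1 in the same 1 Mb bin, never the same window, were 0.90 times as far apart as windows of different autosomes in Cell17, 0.925 in Cell18, 0.802 in Cell19, 0.988 in Cell20, 0.774 in Cell25, 0.683 in Cell26, 0.799 in Cell27, 0.781 in Cell28, 1.02 in Cell38 and 0.941 in Cell39. Only Cell38 was above 1. The log2 ratio was -0.23 ± 0.19 (exact sign-flip test, p = 0.00586, adjusted p = 0.0114), and 89.5% of the autosomes passed. With windows listed in both files left out it was -0.053 and did not pass (adjusted p = 0.101, exact sign-flip test). The difference from the other autosomes was 0.050 ± 0.22 (adjusted p = 0.887, exact sign-flip test). In the MHC segment the agreement differed from that of the other segments by -0.0068 ± 0.31 on the log2 scale (adjusted p = 0.997, exact sign-flip test).

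The Spearman correlation between the bin paths of the 2 files was 0.814 in Cell26, 0.792 in Cell25, 0.781 in Cell28, 0.711 in Cell27, 0.707 in Cell19, 0.635 in Cell39, 0.528 in Cell17, 0.518 in Cell38, 0.337 in Cell18 and 0.0352 in Cell20. It was taken over 85 to 92 bins in which each file had a window. Without windows listed in both files the correlation ran from -0.216 in Cell20 to 0.504 in Cell28, over 58 bins in Cell18 to 92 in Cell28. These values are descriptions.

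More windows of chromosome 17 were in both files than independent files of those sizes would share if all windows were equally likely to be listed. Between cells, 115 windows were located in all 10, where the product of the cells' own shares gives 0.834. The part of such uneven windows in the excess was not tested. The windows in both files numbered 937 in Cell17, 662 in Cell18, 866 in Cell19, 518 in Cell20, 1664 in Cell25, 1135 in Cell26, 926 in Cell27, 1438 in Cell28, 549 in Cell38 and 310 in Cell39. The ratio to the expected number was from 1.31 in Cell17 to 2.50 in Cell20 and 1.66 ± 0.351 on average (SD, n = 10). The log2 ratio of 0.71 ± 0.27 was positive in all 10 cells (exact sign-flip test, p = 0.00195, adjusted p = 0.00195), and 100% of the autosomes passed. It exceeded the mean of the other autosomes by 0.054 ± 0.067, with 8 cells above them. The exact sign-flip test gave p = 0.0254, and 0.0603 once adjusted; without Cell19 the excess was 0.064 and passed (adjusted p = 0.0445, exact sign-flip test). Positions of these windows were identical in both files (within 1e-06 axis units) for 60.3% in Cell39, 60.0% in Cell18 and 59.1% in Cell27, but for 11.8% in Cell38, where their median distance was 0.329 axis units.

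Windows listed in a single file came in blocks. Directly adjacent 10 kb windows of chromosome 17, each listed in a single file, were in the same file in 90.6% ± 6.19 of cases. The split of the single-file windows between the 2 files would alone give 59.1% ± 9.35. The excess was 31.5 ± 8.71 percentage points and positive in all 10 cells (exact sign-flip test, p = 0.00195, adjusted p = 0.00195, 100% of autosomes passed). The excess was 17.9 points in Cell19 and 41.5 in Cell26. Blocks were counted more loosely, as runs of single-file windows of the same file that pass over unlisted windows and windows in both files. Chromosome 17 fell into 196 such blocks in Cell18, 267 in Cell38, 272 in Cell26, 309 in Cell20, 407 in Cell17, 505 in Cell39, 525 in Cell25, 559 in Cell19, 794 in Cell28 and 1104 in Cell27. The longest was 6.04 Mb, 209 windows of file 1 in Cell18 at chr17:60780001-66820000, and the longest in Cell27 was 0.74 Mb. The difference from the other autosomes was -0.21 ± 1.79 points (adjusted p = 0.858, exact sign-flip test). File 1 held from 41.4% (Cell39) to 72.8% (Cell38) of the chromosome 17 windows, and in the MHC segment from 36.8% (Cell39) to 81.8% (Cell38).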

How the data were processed

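Libraries were whole-genome amplified DNA of 122 nuclear profiles from 10 cells, read on a HiSeq X (labels' protocols). Bowtie2 2.3.5, Trim Galore 0.6.4, Picard and the build mm10 are listed in the submitters' processing notes, without their order. How positions were derived is not given in the sources used here. A deposited file gives, per the file headers, 10 kb windows with 1 position each, whose unit is another than a count and is not named. There is no read depth, so the number of windows stands for it and limits the precision.

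Cells were grouped by the labels, with 1 value per cell and test. No label ties cells to separate cultures, and the p-values therefore reflect only how these cells vary. Means were set against 0 by exact sign-flip permutation (smallest p 0.00195 for 10 cells, 0.0312 for 6, 0.125 for 4), computed for all 19 autosomes, 471 segments or 2407 bins, and adjusted by Benjamini-Hochberg over all of them. Bin ratios used windows plus 1 over the chromosome's mean plus 1, offsets had 0.05 axis units added, and a file entered a segment value with at least 5 windows. Expected shared windows are the product of the 2 files' windows over the windows possible from 3 Mb. Batches were compared by exact permutation over 210 assignments. Landmarks (25, all matched) and gene groups were placed with a RefSeq gene table of GRCm38.p6, after leaving out 54 entries below 3 Mb, which are on alternate scaffolds. Named genes are taken from those landmarks, and named bins from the 3 fullest and 3 emptiest, except where a bin, window or gene is said to have been chosen after its values were seen; 1 landmark and its bin are not reported here. Members and lists were chosen with earlier results of these data known. Python 3.11.15, numpy 2.4.6, pandas 2.3.3 and scipy 1.17.1 were used, and the tests were tested on simulated data. Alternatives were other files, bins, bounds and centres, windows left out, leaving out a batch or a cell. Leaving shared windows out of the coverage values was chosen after seeing the data. The controls were left out because they have no position file here.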

Additional observations from a re-analysis of the deposited data

Results flagged for a closer look

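Cell39 stood apart from the other 9 cells in 12 of the 36 values of chromosome 17 and its MHC segment that were checked for an outlying cell (chance flags about 1 in 20). Its log2 ratio at 2 Mb was 0.268, against 0.001 in the next cell. In the difference between chromosome 17 and the other autosomes, Cell39 had 0.633 for 0.01 Mb, 0.719 for 0.1 Mb, 0.699 for 0.5 Mb, 0.648 for 1 Mb, 0.884 for 2 Mb, 0.769 for 5 Mb, 0.452 for 20 Mb and 0.646 for 50 Mb, where the next cell was at 0.041, 0.090, 0.126, 0.108, 0.055, 0.140, 0.119 and 0.225. It was also highest in that difference over all pairs (0.598, next 0.152), from end to end (0.895, next 0.333) and in file agreement (0.661, next 0.102). In Cell39 the mean of the other autosomes was itself the lowest of all cells in these differences. Over all pairs it was -0.485 and chromosome 17 had 0.113, and for file agreement it was -0.749 and chromosome 17 had -0.088. Among the ratios of chromosome 17 itself, only that at 2 Mb was flagged. The flagged values share the same positions and are not independent of each other. Cell39 had the fewest chromosome 17 windows (2434) and 65.6% of those on the grid at 1 slice position. The share of chromosome 17 at that position was 1.02 times its share in the cell. The part of the low number or of the full position in these values was not tested.

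Over all pairs of windows, the log2 ratio of chromosome 17 was higher in the B18F cells than in the B16F cells by 0.074 (exact permutation p = 0.0476), 0.024 ± 0.055 (SD, n = 6) against -0.050 ± 0.027 (SD, n = 4). This was the smallest p of 36 batch comparisons, and it did not pass after adjustment over them (adjusted p = 0.717, exact permutation test).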

How the results depend on the processing

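Of 660 values of 39 results under alternatives, 591 kept their direction and side of the threshold, or a count within 1.5 times, and 40 changed sign, none of them in a result that had passed. MHC coverage was above 0 under each of its alternatives, from 0.17 to 0.28, and never passed after adjustment. In the batch fits, 4 cells cannot pass and 6 cannot give p under 0.0312 (exact sign-flip test). Why other calls were lost or gained was not tested.

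In the B16F cells alone, file agreement (-0.15), shared windows (0.78) and file blocks (27.0 points) no longer passed, and 0 separations and 0 bins did. The midpoint percentile turned to -1.85, and values against other autosomes turned to -0.028 for file agreement, 0.0047 for blocks, -0.019 over all pairs, -0.0020 for 0.01 Mb, -0.0006 for 0.1 Mb, -0.031 for 0.5 Mb, -0.0175 for 5 Mb and -0.053 for 50 Mb. The ratio at 50 Mb turned to -0.072, MHC compactness to 0.029, offset to 0.10 and file agreement to 0.010. In the B18F cells alone, file agreement (-0.28) and all separations (0) lost their call, 5 Mb turned to 0.018 and 5 bins were under 0.05. With 1 file alone, 3 separations passed. File 0 alone gave -0.0047 at 50 Mb and MHC compactness of 0.0083, and file 1 alone gave 8 bins, while 250 kb bins gave 70. Bin means gave -0.13 for file agreement and -0.028 at 1 Mb against other autosomes. The median as centre gave an MHC percentile of 0.076, and bounds of 34 to 37 Mb an offset of 0.28. Without windows in both files, file agreement was -0.053, 2 separations passed, 5 Mb was 0.022 and 50 Mb was -0.044. Without the outermost positions, 10 Mb was 0.0018, MHC compactness 0.070 and MHC file agreement 0.14.

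With each cell left out, values ranged from -0.072 to 0.035 for MHC compactness, -0.050 to 0.046 for MHC file agreement, -0.27 to 0.0425 for MHC offset and -0.0062 to 0.029 at 50 Mb. Against other autosomes they ranged from 0.041 to 0.064 for shared windows (passing without Cell19), -0.65 to 0.0345 for blocks, -0.018 to 0.064 for file agreement, -0.018 to 0.063 at 0.01 Mb and -0.0026 to 0.090 at 0.1 Mb. No paired analysis was possible because the cells carry no replicate numbers that the batches share.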

Other observations

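Some windows of chromosome 17 were located again and again. From 3 Mb on, 115 of 9189 windows (1.25%) were located in all 10 cells and 251 (2.73%) in none, where the product of the cells' own shares gives 0.834 and 46.8. On the other autosomes 1.24% were in all 10 cells and 4% in none. In the MHC segment 1.20% of the windows were located in no cell, against 2.82% in the rest of the chromosome.

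The window at chr17:39840001-39850000 was the only one listed in all 20 files. It holds Rn18s-rs5, annotated as a pseudogene and named for 18S ribosomal RNA, a sequence that the genome has in many copies. Windows in at least 15 files were also found at 28510001 (16 files), at 35610001 (17 files, with the mucin-like gene Gm9573) and at 52420001 (15 files). These windows were chosen after their values were seen, and their base composition and repeats were not examined.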
